A study of Mus musculus with 6 samples.

Results

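Cells take up, exchange and release amino acids through carriers encoded by families of solute carrier (Slc) genes. Here 5 of these families, Slc1, Slc3, Slc6, Slc7 and Slc38, were compared in mouse prostate tumor cells between untreated tumors and other tumors after androgen withdrawal. Members were the genes whose only symbol in the array annotation began with Slc1a, Slc3a, Slc6a, Slc7a or Slc38a and a digit, each read through its brightest transcript cluster (the array's unit for 1 transcript model). The rule found 55 of the 30142 genes tested, 7 in Slc1, 2 in Slc3, 19 in Slc6, 16 in Slc7 and 11 in Slc38. One of them, Slc7a6os, lies on the opposite strand beside Slc7a6 and encodes no transporter. Its value is given apart, but it stays in the counts and medians of members. The rule names no measured value, but the families were chosen with earlier results of these data known.

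Tumor cells were sorted from allografts of MCRedAL, a mouse prostate cancer line that carries the red fluorescent protein mCherry, grown in male mice. There were 3 untreated tumors (Intact in the titles) and 3 tumors of mice given degarelix (7dPC in the titles), a blocker of the gonadotropin-releasing hormone receptor that shuts off testicular androgen. The design text names its groups castration sensitive and post-ADT, that is, after androgen deprivation therapy. Treatment was assigned at random and degarelix was injected under the skin at a tumor size of about 500 mm2, as the labels write the unit. All tumors came from this single line, the labels explain neither 7dPC nor the strain and age of the hosts, and the time of sampling is therefore not given here. The sort kept mCherry-positive cells without the leukocyte and myeloid markers CD45, F4/80 and CD11b, and RNA of integrity number 9 or higher went onto Affymetrix MTA 1.0 arrays, 1 per tumor. The labels call the samples biological replicates without tying each to a mouse, so p-values measure the spread between these samples, and 3 arrays per group limit the precision.

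The families divide the work by substrate and by driving force. Slc1 carriers import glutamate and aspartate or exchange small neutral amino acids, using sodium; Slc6 carriers use sodium and chloride to import neurotransmitters, glycine, proline, taurine and creatine; and the Slc38 system A and system N carriers import glutamine, alanine and other small neutral amino acids. Slc7 holds the cationic carriers, which work alone, and the light chains, which reach the cell surface only when joined to a heavy chain of Slc3. Tumor cells are known to lean on the pair Slc7a5 and Slc3a2 for leucine and other large neutral amino acids, on Slc1a5 for glutamine, and on Slc7a11 with Slc3a2 for cystine, from which glutathione is built.

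Values are log2 expression, so a change of 1 is a doubling, and a change is the degarelix mean minus the untreated mean. The arrays carry background probe sets that match no mouse transcript, the brightest of which read 6.93; a gene below that level may have little or no measurable RNA. By that mark 17 members were bright and 38 were dim. Probes differ in how strongly they bind, so levels were compared between samples of a gene and not between genes. In bulk RNA, a lower value cannot be told apart as fewer cells with the transcript or less transcript per cell.

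The sorted cells carried epithelial and prostate transcripts unevenly. Krt8, an epithelial keratin, read 11.25 to 12.09 and Foxa1, a luminal transcription factor, 9.37 to 9.60, but Epcam (3.79 to 3.98), Cdh1 (4.80 to 5.07) and Krt18 (5.38 to 5.82) lay below the background mark on all 6 arrays. Of the prostate markers 2 of 4 were measured, and Hoxb13, the one besides Foxa1, read 6.86 to 7.22, around that mark. Of the leukocyte markers 7 of 8 were measured and none had a mean above that mark; their mean was 4.89 to 5.92 in untreated and 4.90 to 5.01 in degarelix samples. The highest leukocyte level was that of untreated replicate 1, where the macrophage gene Lyz2 read 9.02. Of the fibroblast markers 6 of 7 were measured and 5 were bright. The mean of the 6 was 7.50 to 7.95 in untreated and 8.09 to 8.86 in degarelix samples. The 2 that rose were Dcn, by 1.46, and Fbln1, by 1.07 on the log2 scale. Of all genes 4.19% were higher, and of bright genes 7.76%. Endothelial markers averaged 5.66 to 6.12 and smooth muscle markers 6.50 to 6.73 over all arrays. In each of these lists 1 gene was above the background mark on all 6 arrays, Cdh5 at 7.14 to 7.99 and Acta2 at 8.27 to 9.07. The part of these cells in the results below was not tested, except where a value is given.

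After degarelix 6 carriers changed. Slc38a4 fell steeply, Slc6a6, Slc38a10 and Slc7a6 fell modestly, and Slc38a3 and Slc6a8 rose modestly. These 6 of 55 members passed limma's moderated test at an adjusted p under 0.05, a share close to that of all genes, of which 11.7% passed (4.19% higher and 7.51% lower). Of the 17 bright members 5 passed, against 23.8% of all bright genes; 1 was higher, against 7.76%, and 4 were lower, against 16.1%. Of the 38 dim members 1 passed, against 6.39% of all dim genes. Which direction led depended on the scaling: against 2 higher and 4 lower members here, cyclic loess gave 5 higher and 1 lower and quantile normalization 6 higher and 3 lower. In 20 of 55 members the untreated and degarelix values did not overlap, against 31.2% of all genes. The families as a whole thus stood near the background of the comparison, and what follows concerns single carriers. The median change was 0.10 over members and 0.04 over all genes; it was -0.09 for bright members and -0.08 for all bright genes, and 0.11 for dim members and 0.06 for all dim genes. The number of members called ran from 1 without degarelix replicate 2, 2 without degarelix replicate 1 and 3 without untreated replicate 2 to 11 without degarelix replicate 3.

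**Figure D1:**
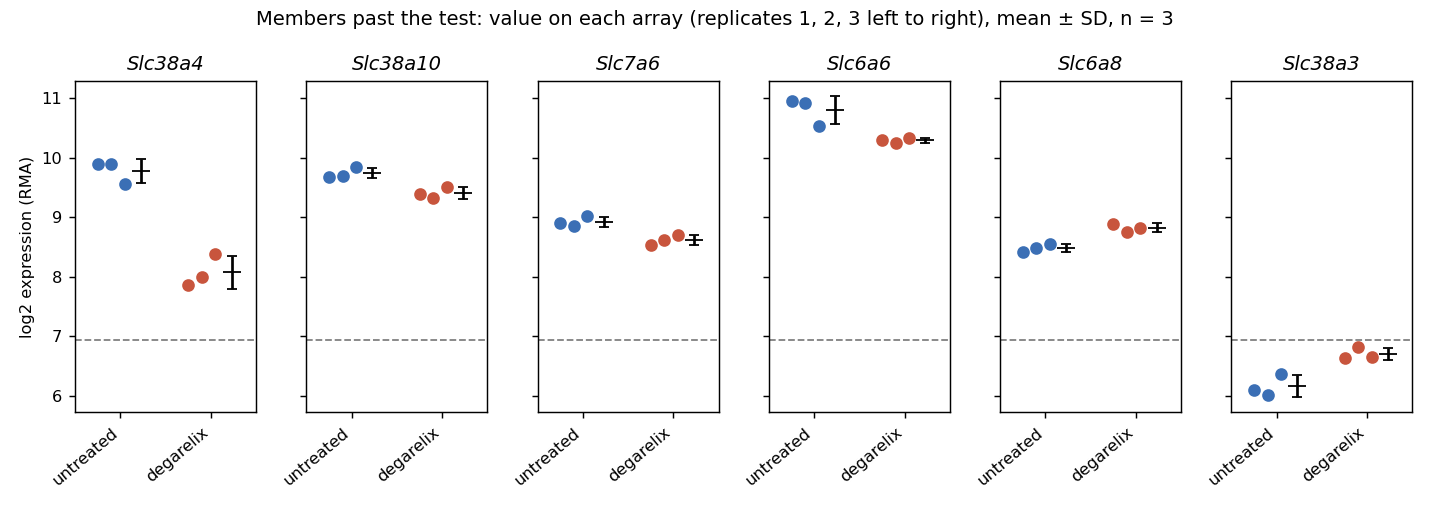
Log2 expression of the 6 members that passed the test, 1 point per array with replicates 1 to 3 from left to right, and the mean ± SD of 3 arrays beside each group; the dashed line is the brightest background probe set at 6.93. Slc38a4 shows the widest gap between groups, from 9.78 to 8.07, while all Slc38a3 values lie below the line.

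**Figure D2:**
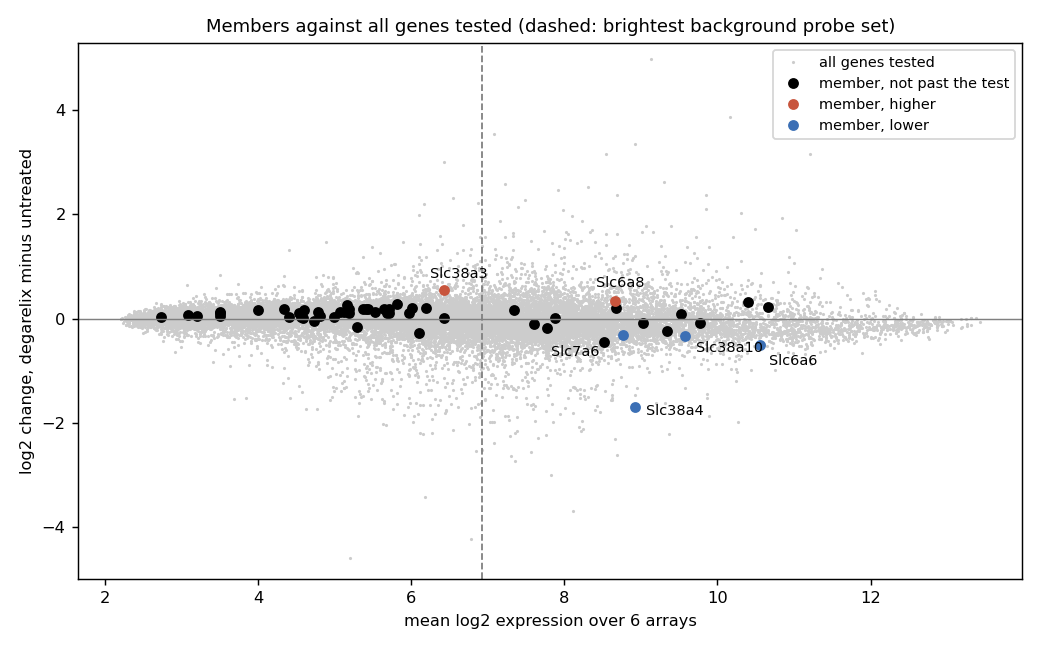
Log2 change after degarelix (vertical) against mean log2 expression over 6 arrays (horizontal) for all 30142 genes tested in grey and the 55 members as large points; the dashed line is the brightest background probe set. Slc38a4, at -1.71, lies apart from the other members, whose changes run from -0.51 to 0.54.

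System A carriers, which move small neutral amino acids together with sodium, gave the largest change of any member. Slc38a4, a system A carrier that is strongly expressed in liver and placenta and imprinted in the mouse, read 9.90, 9.89 and 9.55 in untreated tumors and 7.85, 7.99 and 8.38 in degarelix tumors. Every degarelix value lay more than 1 log2 unit below every untreated value. It fell by 1.71 on the log2 scale (SE 0.15), a 3.27-fold difference with limma adjusted p = 3.09e-04, and both groups stayed above the background mark. It passed under all 15 alternative settings and omissions, with changes of -1.86 to -1.60, and was the single member to pass a test against a 1.2-fold change. In degarelix replicate 3, which had the highest Slc38a4 of its group, the fibroblast marker Dcn was also highest (9.43 against 8.71 and 8.55). In untreated replicate 3, which had the lowest Slc38a4 of its group, Dcn was highest as well (8.02 against 6.94 and 7.35). Without degarelix replicate 3 the Slc38a4 change was -1.86, and the part of fibroblasts was not tested.

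The other system A carriers changed less and did not pass. Slc38a1, the system A carrier of glutamine uptake in many dividing cells, read 9.54, 9.39 and 9.49 in untreated and 9.57, 9.52 and 9.62 in degarelix tumors, a change of 0.10 (SE 0.07, limma adjusted p = 0.422). Slc38a2, the system A carrier known to be induced when amino acids run short, read 9.59, 9.32 and 9.46 against 9.19, 9.17 and 9.31. Its groups did not overlap, but the change of -0.23 (SE 0.09) did not pass (limma adjusted p = 0.127). With gene-by-gene array weights it was -0.22 and passed (limma adjusted p = 0.0372). In the RefSeq gene table for assembly GRCm38.p6, Slc38a1, Slc38a2 and Slc38a4 follow one another on chromosome 15 as consecutive protein-coding genes, so the gene that fell and those that did not pass are neighbours. Within each array Slc38a1 minus Slc38a2 was higher after degarelix by 0.33 (SE 0.04), without overlap of the groups. The exact permutation test over samples, two-sided, gave p = 0.1, which is the smallest that 3 against 3 allows, and 0.2 after Benjamini-Hochberg adjustment over the 4 pairs tested.

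The RefSeq promoter table lists 3 starts for Slc38a4, all on the minus strand of GRCm38.p6. The 250 bases before each are printed because this gene carries the largest change. Capitals mark AGAACA or its reverse complement TGTTCT, the 6-letter unit that stands in 2 copies in the element androgen and glucocorticoid receptors bind. These letters were searched on both strands after the fall of Slc38a4 had been seen.
Slc38a4, chr15:97055957-97056206: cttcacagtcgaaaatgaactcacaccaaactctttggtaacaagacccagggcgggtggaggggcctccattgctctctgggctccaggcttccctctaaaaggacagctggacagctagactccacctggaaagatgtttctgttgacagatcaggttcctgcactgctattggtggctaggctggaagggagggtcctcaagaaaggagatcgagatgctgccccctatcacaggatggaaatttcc
Slc38a4, chr15:97031214-97031463: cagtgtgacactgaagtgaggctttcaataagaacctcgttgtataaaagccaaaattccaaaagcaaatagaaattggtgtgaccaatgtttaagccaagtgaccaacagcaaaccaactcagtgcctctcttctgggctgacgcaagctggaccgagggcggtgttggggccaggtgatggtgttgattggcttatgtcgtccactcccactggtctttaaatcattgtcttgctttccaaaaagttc
Slc38a4, chr15:97020360-97020609: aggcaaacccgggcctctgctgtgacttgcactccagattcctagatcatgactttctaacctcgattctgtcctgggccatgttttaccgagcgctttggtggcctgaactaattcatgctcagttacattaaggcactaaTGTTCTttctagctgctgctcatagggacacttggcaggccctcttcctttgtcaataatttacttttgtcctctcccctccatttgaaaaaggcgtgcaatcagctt
The 6-letter unit stood once, in the window that ends the list, 108 bases before the start. It was held by 16.1% of all 32851 promoter windows, and so did 7 of the 60 windows of members, which belong to 6 of the 40 members with a window. The windows held 3, 5 and 5 CG pairs, against a median of 6 over all windows. The array does not resolve which start was used.

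Among the other Slc38 carriers 1 rose and 1 fell. Slc38a3, a system N carrier that exchanges glutamine, histidine and asparagine, read 6.10, 6.01 and 6.37 in untreated and 6.63, 6.82 and 6.66 in degarelix tumors. The groups were apart, and the rise of 0.54 (SE 0.10) passed with limma adjusted p = 0.0132. All 6 values were below the background mark of 6.93, so the size of the change is less certain, and without degarelix replicate 2 the call was lost (limma adjusted p = 0.0558). The other system N gene, Slc38a5, was also below that mark on all arrays and had a change of -0.04.

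Slc38a10, an Slc38 member of less settled function, read 9.68, 9.70 and 9.85 in untreated and 9.39, 9.32 and 9.51 in degarelix tumors. It fell by 0.33 on the log2 scale (SE 0.08, limma adjusted p = 0.0319), with no overlap. It lost its call on leaving out untreated replicate 2 or 3 or degarelix replicate 1 or 2 (limma adjusted p = 0.0728, 0.114, 0.108 and 0.132), and under median centring (0.0577) and cyclic loess (0.0775). The lysosomal carriers did not pass: Slc38a7 had a change of 0.17 and Slc38a9, the arginine-sensing member that signals to mTORC1, -0.16 at a dim level. The remaining Slc38a6, Slc38a8 and Slc38a11 were dim, with changes of 0.00, 0.18 and 0.06.

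In Slc6, the carrier of taurine fell and the carrier of creatine rose. Slc6a6, which imports taurine, an osmolyte and antioxidant, read 10.95, 10.93 and 10.54 in untreated and 10.30, 10.25 and 10.34 in degarelix tumors. Untreated replicate 3 lay closest to the treated group, yet the groups did not overlap. It fell by 0.51 on the log2 scale (SE 0.11), a 1.43-fold difference with limma adjusted p = 0.0216. The call was lost under cyclic loess and quantile normalization (limma adjusted p = 0.136 and 0.109) and on leaving out untreated replicate 2 (0.0719) or either of degarelix replicates 1 and 2 (0.0769 and 0.0782).

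Slc6a8, which imports creatine for the phosphocreatine energy buffer, read 8.42, 8.49 and 8.55 in untreated and 8.89, 8.75 and 8.83 in degarelix tumors. All degarelix values were above all untreated ones, and the rise of 0.34 (SE 0.07), a 1.26-fold difference, passed with limma adjusted p = 0.0218. It was lost under median centring (0.073) and on leaving out untreated replicate 2 (limma adjusted p = 0.0703) or either of degarelix replicates 1 and 2 (0.0854 and 0.051).

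Slc6a9, the glycine carrier GlyT1, was the other bright gene of this family. It read 8.56, 8.53 and 8.62 against 8.73, 8.75 and 8.85, without overlap, a change of 0.21 (SE 0.07) that missed the threshold (limma adjusted p = 0.0932). It passed under cyclic loess and quantile normalization and with gene-by-gene array weights. A dimmer cluster of the same gene had a change of 0.30. The other 16 Slc6 members were dim. They include the carriers of monoamines (Slc6a2, Slc6a3 and Slc6a4, changes of 0.12 to 0.19), of GABA and betaine (Slc6a11, Slc6a12 and Slc6a13, 0.11 to 0.18) and of neutral amino acids in gut, kidney and brain (Slc6a14, Slc6a15, Slc6a17, Slc6a18 and Slc6a19, 0.05 to 0.16). The dim carriers of glycine and proline (Slc6a5, Slc6a7, Slc6a20a and Slc6a20b) had changes of 0.10 to 0.20, and Slc6a16, of unassigned substrate, one of 0.18. Slc6a14, a broad-range carrier reported as high in several carcinomas, read 3.14 to 3.27 over the 6 arrays. None of the 16 passed in the main fit, and a change at such levels could have been missed.

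**Figure D3:**
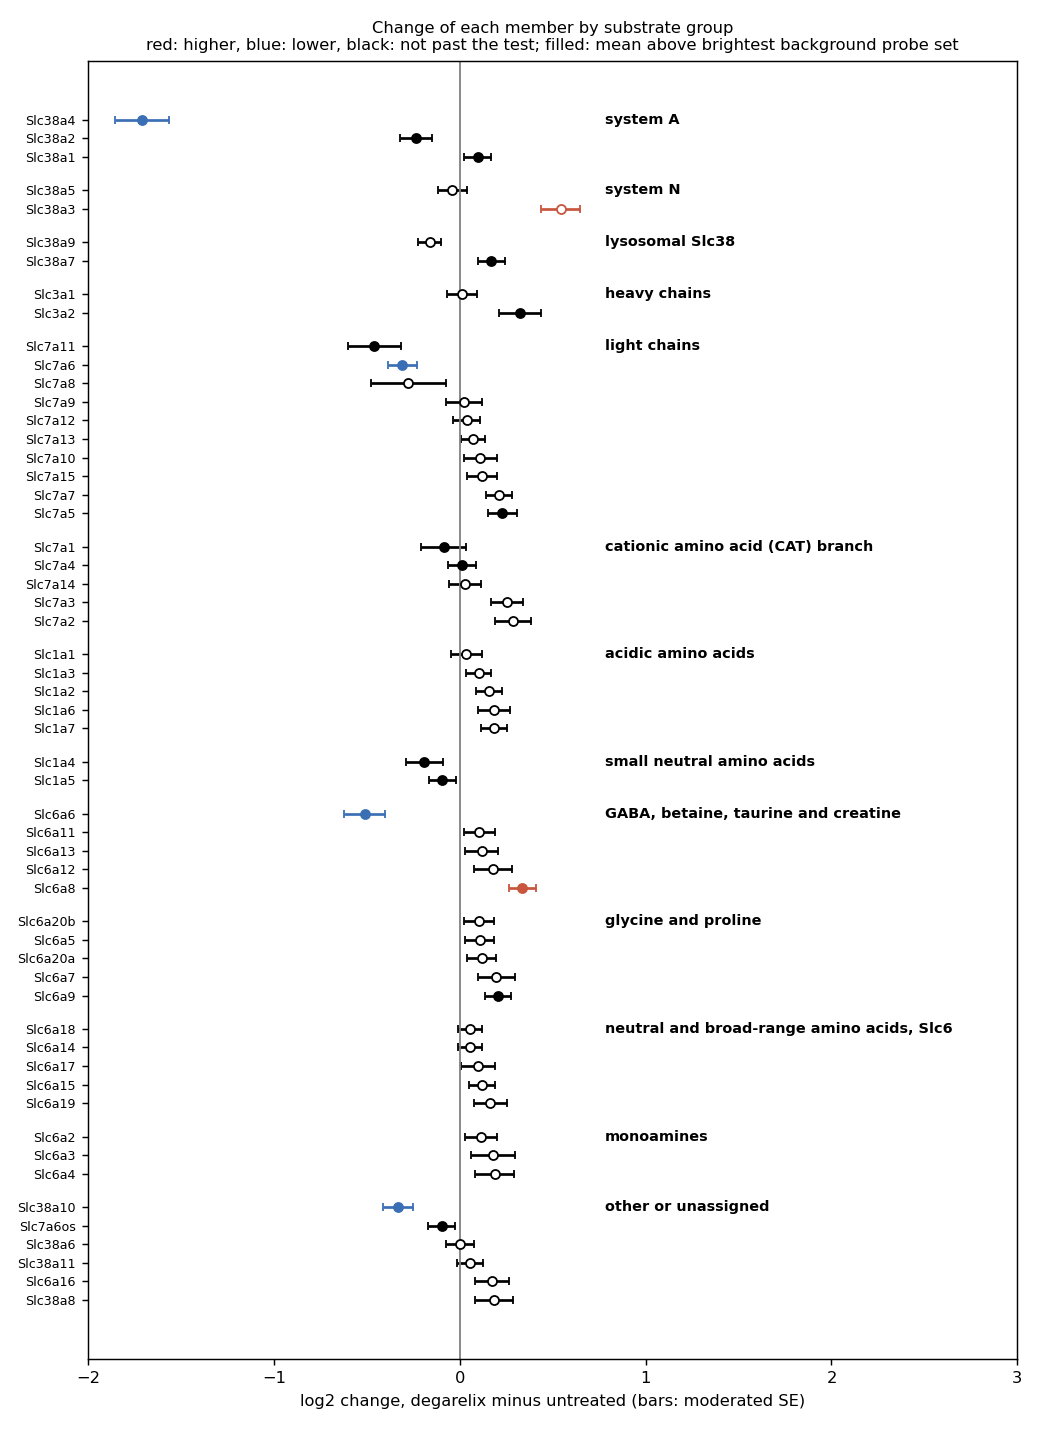
Log2 change after degarelix (horizontal, bars are the moderated SE) for all 55 members, grouped by substrate; filled points have a mean above the brightest background probe set, red and blue points passed the test. Most open points, the dim members, lie just above 0, with Slc38a3 at 0.54, while the filled points spread from -1.71 to 0.34.

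Of the heavy chain Slc3a2 and its bright light chains, only Slc7a6 passed the test. Slc3a2, the heavy chain also known as CD98 or 4F2, read 9.999, 10.39 and 10.34 in untreated and 10.51, 10.49 and 10.69 in degarelix tumors. Untreated replicate 1 was the lowest of all, and the change of 0.32 (SE 0.11) did not pass (limma adjusted p = 0.108). Its main light chain, Slc7a5 (LAT1), which brings in leucine and other large neutral amino acids, read 10.53, 10.56 and 10.54 against 10.73, 10.69 and 10.90. The groups did not overlap, and the change of 0.23 (SE 0.08) did not pass either (limma adjusted p = 0.0929). Both passed as rises under cyclic loess (limma adjusted p = 0.0116 for Slc3a2 and 0.0193 for Slc7a5) and quantile normalization (0.0121 and 0.0434), so their calls depended on the scaling. Within arrays Slc7a5 minus Slc3a2 changed by -0.09 (SE 0.12; exact permutation test, two-sided, p = 0.9), a sign that turned without untreated replicate 1 (0.02).

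Slc7a6, the light chain y+LAT2, which exchanges cationic amino acids such as arginine for glutamine, had a change of the opposite sign. It read 8.90, 8.85 and 9.02 in untreated and 8.54, 8.61 and 8.70 in degarelix tumors, and thus fell by 0.31 on the log2 scale (SE 0.08, limma adjusted p = 0.0353) without overlap. The call was lost on leaving out untreated replicate 2 or 3 or degarelix replicate 1 or 2 (limma adjusted p = 0.0645, 0.127, 0.131 and 0.119) and under median centring (0.0575) and cyclic loess (0.0819). The neighbouring opposite-strand gene Slc7a6os had a change of -0.10 (SE 0.07, limma adjusted p = 0.426). How far the probes of these neighbours are kept apart by strand is not given in the sources used here.

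Slc7a11 (xCT), the light chain that trades glutamate for cystine, read 8.99, 8.77 and 8.49 in untreated and 8.17, 8.17 and 8.53 in degarelix tumors. Degarelix replicate 3 lay above untreated replicate 3, so the groups overlapped. The change of -0.46 (SE 0.14) was the lowest among members that did not pass (limma adjusted p = 0.0737). Slc7a11 passed without untreated replicate 3 (limma adjusted p = 0.0417), without degarelix replicate 3 (0.0438) and among bright genes alone (0.0462). It also passed with gene-by-gene array weights (limma adjusted p = 0.00753). Within arrays Slc7a11 minus Slc3a2 was lower after degarelix by a difference of -0.78 (SE 0.26), with no overlap. The exact permutation test, two-sided, again gave the smallest p that the design allows, p = 0.1 (0.2 adjusted over the 4 pairs).

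The promoter of Slc7a11 is printed because it holds the element through which amino acid shortage is known to act on this gene. That element, bound by Atf4 with partners of the C/EBP family, was searched as TGATGNAA on both strands of the 250 bases before each start. In the printed stretch, on the minus strand of GRCm38.p6, capitals mark this motif, once in each orientation, and a copy of the 6-letter unit TGTTCT nearer the 5′ end.
Slc7a11, chr3:50443614-50443863: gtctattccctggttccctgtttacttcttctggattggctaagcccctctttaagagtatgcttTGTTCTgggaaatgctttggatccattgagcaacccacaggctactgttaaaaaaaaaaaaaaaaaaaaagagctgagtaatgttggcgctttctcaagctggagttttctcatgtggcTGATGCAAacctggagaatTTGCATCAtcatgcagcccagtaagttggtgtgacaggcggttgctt
The 2 copies begin 66 and 47 bases before the start. The motif stood in 3 of the 60 windows of members, those of Slc7a11 and Slc7a7, and in 3.45% of all windows. The element TGACTCA (or TGAGTCA on the other strand), bound by AP-1 factors, stood in 5 of the 60 windows and in 4.46% of all. A match is a run of letters and no evidence of binding in these cells.

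**Figure D4:**
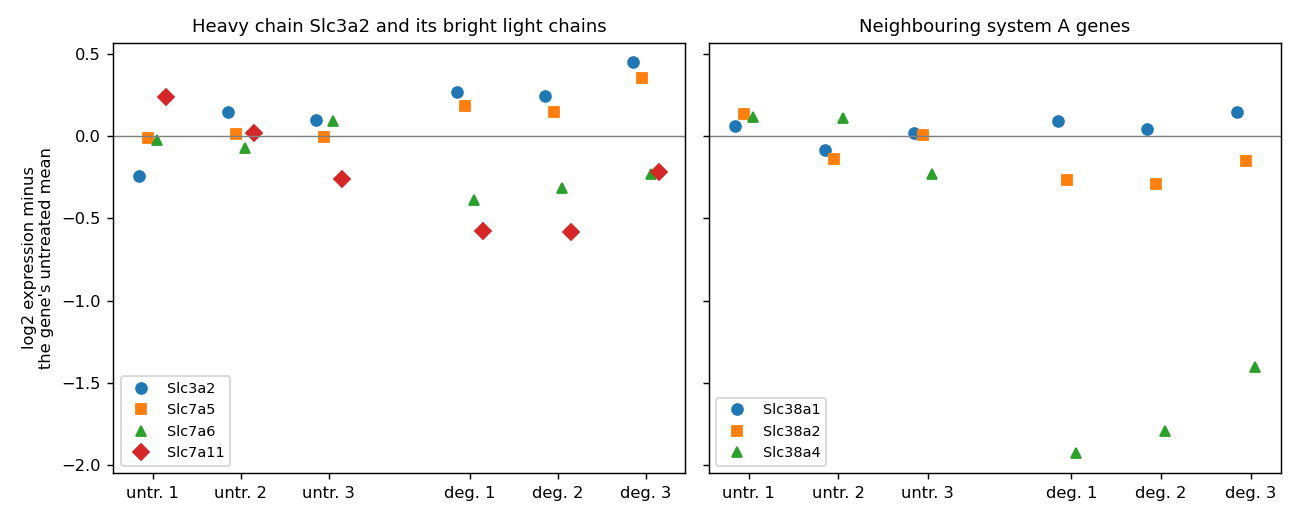
Log2 expression on each array minus the gene's own untreated mean, for the heavy chain Slc3a2 with the light chains Slc7a5, Slc7a6 and Slc7a11 (left) and for the neighbouring system A genes (right). On all 3 degarelix arrays Slc3a2 and Slc7a5 lie above 0 and Slc7a6 and Slc7a11 below, and on the right only Slc38a4 drops by more than 1.

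The other light chains were dim. Slc7a8 (LAT2), a carrier of neutral amino acids, varied most among untreated tumors, at 6.60, 5.70 and 6.42 against 6.04, 5.91 and 5.94 after degarelix. Over the untreated samples 6 of 7 measured leukocyte markers (all but S100a8) and 5 of 5 endothelial markers were ordered in the same way, Lyz2 for example at 9.02, 6.26 and 7.65 and Cdh5 at 7.99, 7.23 and 7.55, and 0 of the fibroblast, epithelial, prostate and smooth muscle markers were. These markers were read on the same few arrays and are not independent. The share of all genes ordered in this way was not counted, so the count of markers does not test a cause. Only Cdh5 among these markers had a mean above the background mark. The spacing was not shared by all, as Csf1r read 6.67, 5.53 and 5.64. The sort had removed cells with CD45, F4/80 or CD11b on their surface, and the part of other cells in the Slc7a8 values was not tested. The Slc7a8 change of -0.28 (SE 0.20, limma adjusted p = 0.409) did not pass, except without untreated replicate 2, where it was -0.55 (0.0131). Slc7a7 (y+LAT1), a light chain of macrophages and gut, read 5.95, 5.87 and 5.89 against 6.20, 6.10 and 6.05, a change of 0.21 (limma adjusted p = 0.0941). With gene-by-gene array weights Slc7a7 passed (limma adjusted p = 0.0176). Slc7a9, Slc7a10, Slc7a12, Slc7a13 and Slc7a15 had changes of 0.02 to 0.12. Slc3a1, the heavy chain that serves Slc7a9 in the kidney, was dim (4.48 to 4.67) and had a change of 0.01.

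Of the cationic branch, Slc7a1 (CAT1), the main arginine and lysine carrier of dividing cells, read 9.56, 9.83 and 10.07 in untreated and 9.79, 9.74 and 9.67 in degarelix tumors. The groups overlapped fully, and the change of -0.09 (SE 0.12, limma adjusted p = 0.672) turned to 0.03 under cyclic loess. Slc7a4, which has no settled substrate, had a change of 0.01. The dim Slc7a2 and Slc7a3, both arginine carriers, had changes of 0.28 and 0.25 that did not pass (limma adjusted p = 0.0985 and 0.101), and Slc7a14 one of 0.03.

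No Slc1 member passed in the main fit, but Slc1a2, Slc1a4, Slc1a6 and Slc1a7 did with gene-by-gene array weights. Slc1a5 (ASCT2), the sodium-dependent exchanger of glutamine and other neutral amino acids, read 9.16, 9.04 and 9.05 in untreated and 8.98, 8.91 and 9.06 in degarelix tumors, a change of -0.09 (SE 0.07, limma adjusted p = 0.441). Slc1a4 (ASCT1), which prefers alanine, serine and cysteine, read 7.77, 7.83 and 8.01 against 7.61, 7.58 and 7.85, a change of -0.19 (SE 0.10, limma adjusted p = 0.263). In both, the groups overlapped; the difference between them, Slc1a4 minus Slc1a5 within arrays, changed by -0.10 (SE 0.11; exact permutation test, two-sided, p = 0.6). The glutamate carriers Slc1a1, Slc1a2, Slc1a3, Slc1a6 and Slc1a7, best known from brain, retina and kidney, all had means below the background mark and changes of 0.04 to 0.18.

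Grouped by substrate, passes were scattered, and groups this small say little beside the 11.7% of all genes (23.8% of bright and 6.39% of dim genes) that passed. System A, whose 3 members were all bright, had 1 fall (median -0.23), system N 1 rise among 2 dim members, and the carriers of GABA, betaine, taurine and creatine 1 rise and 1 fall among 5 (median 0.12). The light chains had 1 fall among 10 (median 0.05), and the members of other or unassigned function, Slc7a6os included, 1 fall among 6. None passed among the 5 acidic amino acid carriers, all of them dim, the 5 cationic carriers, the 5 glycine and proline carriers, the 5 neutral Slc6 carriers, the 3 monoamine carriers, and the small neutral exchangers, lysosomal carriers and heavy chains, 2 members each.

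Among genes that work around these carriers, those that passed lay in both directions in the lists of other transporter families and of the amino acid response, and were all lower in the lists of glutathione, of glutamine, glutamate and branched-chain metabolism, and of mTORC1 sensing. Their counts stand against 4.19% of all genes higher and 7.51% lower, and against 7.76% and 16.1% of bright genes. Of 13 genes in other transporter families, 5 of them bright, 1 rose and 1 fell (median 0.06). Slc43a2 (LAT4), which lets large neutral amino acids out of the cell, rose from 7.50 ± 0.05 to 7.998 ± 0.05 (mean ± SD, n = 3 per group), a change of 0.50 with limma adjusted p = 0.00261. Slc43a3, which sits in the same family but carries nucleobases, fell from 8.30 ± 0.12 to 7.48 ± 0.09, by 0.82 on the log2 scale (limma adjusted p = 6.88e-04).

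In the amino acid response list, 23 of 25 genes were measured and 20 were bright; 3 rose and 5 fell (median -0.03), or 8 of 23 beside the 11.7% of all genes and 23.8% of bright genes that passed. The stress-induced regulators Nupr1 and Ddit3 rose by 0.67 and 0.70, and Chac1, which degrades glutathione, by 0.45. Shmt2, the mitochondrial serine hydroxymethyltransferase, was lower at -0.79, and Gars, the glycyl-tRNA synthetase, at -0.77; the other falls were those of Mthfd2, Cth and Psph, the last with a mean of 6.92, just below the background mark. Atf4 itself, which encodes the list's transcription factor, had a change of 0.15 (limma adjusted p = 0.416), and Asns, the asparagine synthetase gene induced by it, one of -0.47 (0.0508). Adjusted p in limma was at most 0.0381 for the 8 genes that passed, the highest being that of Ddit3, which was lost under median centring (0.102) and without untreated replicate 3 or degarelix replicate 1, 2 or 3 (0.0774, 0.0922, 0.0651 and 0.0888).

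Of 6 measured glutathione genes, 5 of them bright, 2 fell (median 0.02), beside 7.51% of all genes and 16.1% of bright genes lower: Gclc, the catalytic subunit of the rate-limiting ligase, by 0.52 on the log2 scale (SE 0.09, limma adjusted p = 0.00704), and Gsr, glutathione reductase, by 0.38 (SE 0.09, limma adjusted p = 0.0276). Of 9 measured genes of glutamine, glutamate and branched-chain metabolism, 7 of them bright, 3 fell (median -0.02). They were the aspartate aminotransferases Got2, at -0.64, and Got1, at -0.35, and the alanine aminotransferase Gpt2, at -0.54 (limma adjusted p = 6.94e-04, 0.0247 and 0.0134). Of 22 genes through which mTORC1 senses amino acids, 17 of them bright, 3 fell (median -0.01): the kinase gene Mtor at -0.80, Rragb, a Rag GTPase gene, at -0.52, and Depdc5, part of a complex that restrains the pathway, at -0.46 (limma adjusted p = 5.68e-04, 0.0225 and 0.0058). Rragb was below the background mark on all 6 arrays, so the size of its change is less certain. The calls of Gsr, Got1 and Rragb were each lost without untreated replicate 2 (limma adjusted p = 0.0926, 0.0799 and 0.0516), degarelix replicate 1 (0.108, 0.0963 and 0.0754) or degarelix replicate 2 (0.108, 0.102 and 0.0817). Those of Gsr and Rragb were also lost without untreated replicate 3 (0.0996 and 0.0723), that of Gpt2 without degarelix replicate 1 (0.0626), that of Got1 under cyclic loess (0.123) and quantile normalization (0.0868), and that of Gsr under median centring (0.0572).

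**Figure D5:**
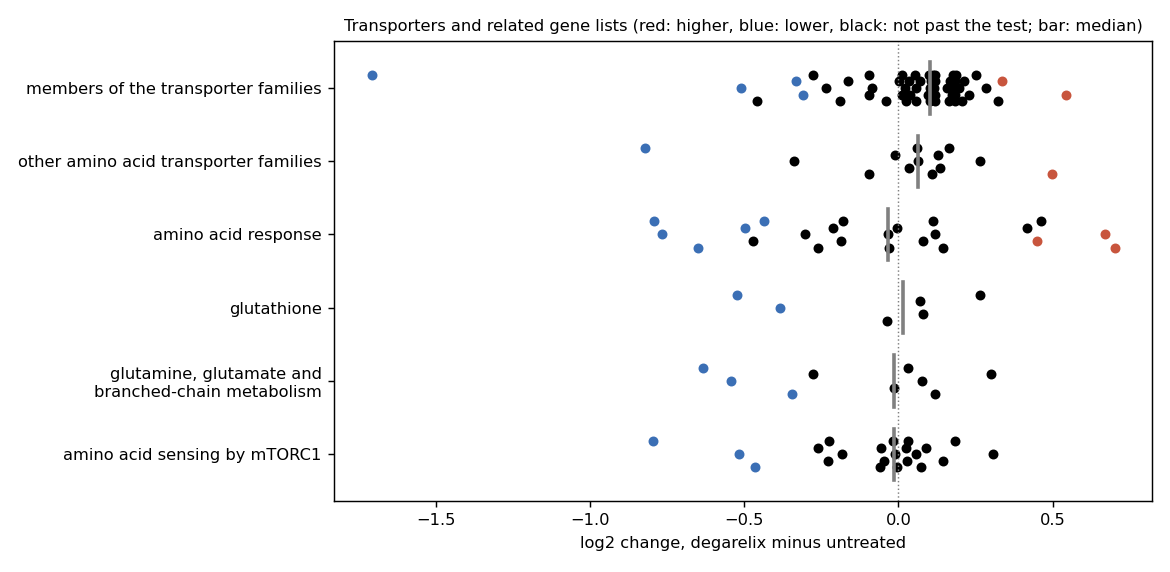
Log2 change after degarelix for the 55 members and for 5 related gene lists, 1 point per gene, with a grey bar at each list's median; red and blue points passed the test and the vertical scatter within a list carries no value. The medians lie between -0.03 and 0.10, and points that passed stand on both sides in 3 of the 6 rows.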

How the data were processed

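The deposited table holds log2 expression values for 6 arrays, which the authors made with Affymetrix Expression Console and RMA, per the submitters' processing notes (no version or parameter named there). Such values are background-corrected, quantile-normalized between arrays and summarised per probe set, and changes of dim genes come out compressed. Of 72688 rows, 6732 control and background rows were left out. Of 65956 transcript clusters 30604 had 1 gene symbol; symbols were updated through Entrez identifiers (RefSeq, GRCm38.p6), and the brightest cluster represented a gene (30142 in all, dim ones included). A cluster whose symbol became Slc6a21 only by that update was not a member. The contrast of degarelix minus untreated was fitted with limma 3.58.1 under R 4.3.3, two-sided and Benjamini-Hochberg adjusted over all genes, threshold 0.05; it was tested on simulated data. Tables and figures used Python 3.11.15, pandas 2.3.3 and matplotlib 3.10.9. Array medians were 4.70 to 4.84. Promoter windows came from RefSeq (GRCm38.p6) and 40 of 55 members had one.

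Members and lists were chosen with earlier results of these data known. Named were all members past the test, the 10 brightest, 13 members fixed by name, the largest rise and fall that did not pass, and up to 4 called genes per related list with those against its majority; Slc6a9, Mthfd2, Psph, Cth, Atf4, Asns and dim members were added after their values were seen. Alternatives were other scalings, variance models, array weights, a dim-gene filter, the mean of clusters, a replicate block, a 1.2-fold test and leaving out each sample.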

Additional observations from a re-analysis of the deposited data

How the results depend on the processing

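All 6 called members kept their direction under every alternative that included them; Slc38a3 has no value under the filter on dim genes. The number of members called, 6, was 3 under median centring, 23 with gene-by-gene array weights (15 higher) and 1 in the test against a 1.2-fold change, and ran from 1 to 11 on leaving out single samples. Array weights kept the 6 and added Slc1a2, Slc1a4, Slc1a6, Slc1a7, Slc38a2, Slc38a9, Slc6a12, Slc6a16, Slc6a19, Slc6a20a, Slc6a3, Slc6a4, Slc6a7, Slc6a9, Slc7a11, Slc7a3 and Slc7a7. The 6 called under cyclic loess shared 3 with those reported, and 5 of them were higher, against 2 of 6; quantile normalization gave 9, of which 6 were higher. Over all genes 3526 were called (35.8% higher); the number was 9912 with array weights (51.0% higher), 749 against a 1.2-fold change, and 1590 (without degarelix replicate 1) to 4700 (without untreated replicate 1) on leaving out single samples. Reversed signs were small: Slc1a5 under cyclic loess (0.0099), Slc7a1 under cyclic loess (0.0325) and Slc3a1 under median centring (-0.0344), cyclic loess (-0.0715) and quantile normalization (-0.0421). On leaving out single samples Slc3a1 ran from -0.026 to 0.0703, Slc7a1 from -0.2149 to 0.04 and Slc7a5 minus Slc3a2 from -0.1596 to 0.0228. The cause was not tested. Samples sharing a replicate number had deviations correlated at 0.16, 0.04 and 0.20, and samples with unlike numbers at -0.17 to 0.03. The main fit did not take the numbers as pairs, and whether they mark a shared batch was not tested. With the replicate block the same 6 members were called, and 3806 genes in all, against 3526. Signal over background limits the 38 dim members.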
